A study of Arabidopsis thaliana with 12 samples.

Results

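The 5′ untranslated region (5′ UTR), the exon, the intron and the 3′ UTR are the parts of annotated transcripts to which small RNA reads were assigned in the authors' class table, and trans-acting siRNA (tasiRNA) is a further class in that table. These 5 classes were taken at 21 nt and at 22 nt, which gives 10 class values per library out of 28 over 14 classes. They were chosen by class name and not by their values, though with earlier results of these data known. The libraries came from whole seedlings of Arabidopsis thaliana, 10 days old, with 3 biological replicates in each of 4 groups. The groups were dcl4-2 on MS-N, dcl4-2 on MS, Col-0 on MS-N and Col-0 on MS, where Col-0 is the wild type, dcl4-2 a single mutant allele of DICER-LIKE 4 (DCL4), MS a mineral growth medium and MS-N the same medium without nitrogen. All groups shared the seedling stage and the time of day of collection. Values are library-scaled reads (rpm), a relative unit in which a class can rise because others fall, and means are given ± SD with n = 3 libraries.

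Plants cut long double-stranded RNA into short interfering RNAs with DICER-LIKE enzymes. DCL4 makes the 21-nt products of tasiRNA precursors and of other double-stranded RNAs, and DCL2 can cut the same RNAs into 22-nt products. A tasiRNA precursor (TAS transcript) is first cut by a microRNA bound to an ARGONAUTE protein, then copied into double-stranded RNA by RDR6 with SGS3, and then diced in steps from the cut site. Introns are removed from transcripts by splicing, and UTRs flank the coding part.

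The sequences below show where dicing of 3 TAS precursors begins and how a 21-nt and a 22-nt product of the same start differ. They were read from the RefSeq annotation of TAIR10.1. The mature microRNAs are given with the seed, bases 2 to 8, in capitals. They are encoded at chr3:8236161-8236182 on the plus strand (miR173), chr2:16061971-16061991 on the plus strand (miR390a) and chr4:13847020-13847041 on the plus strand (miR828).
miR173: tTCGCTTGcagagagaaatcac
miR390a: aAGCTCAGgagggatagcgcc
miR828: tCTTGCTTaaatgagtattcca
Each site below lies in the precursor, and its capitals mark the bases opposite bases 10 and 11 of the microRNA, between which the cut falls. The TAS1C site is at chr2:16537890-16537911 on the minus strand, the TAS3 site at chr3:5862099-5862119 on the plus strand and the TAS4 site at chr3:9417809-9417830 on the minus strand.
TAS1C site: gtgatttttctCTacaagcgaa
TAS3 site: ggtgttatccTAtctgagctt
TAS4 site: tggaatactcaTTtgagcaaga
The first windows downstream of the cut in TAS1C have the same start, at chr2:16537879-16537899 for 21 nt and chr2:16537878-16537899 for 22 nt, and the capital marks base 22.
TAS1C first 21-nt window: tacaagcgaatagaccattta
TAS1C first 22-nt window: tacaagcgaatagaccatttaT
The class table sums reads over all tasiRNA loci and gives no reads for any of these windows.

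The 12 libraries held 4515437 to 7270637 reads, and every value of the 5 classes rested on at least 2526 reads. One library, dcl4-2 on MS replicate 1, stood apart in a class outside the 5, with 26469 rpm of 22-nt intergenic reads against 66132 and 57302 rpm in the other dcl4-2 libraries on MS. Its rpm was the highest of its group in 8 of the 10 class values and the lowest in both 3′ UTR values, and where leaving it out changed a call described here the value without it is given. A small RNA count does not measure the DCL4 messenger, so the genotype labels were not checked by the targeted gene. The tasiRNA values are the direct product class of DCL4, and they are described first.

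The 21-nt tasiRNA reads were far lower in dcl4-2 than in Col-0 on both media, and the 22-nt tasiRNA reads were higher. At 21 nt the tasiRNA class measured 2521, 2638 and 2866 rpm in dcl4-2 on MS-N, against 50329.6, 46185 and 40856 rpm in Col-0 on MS-N. On MS it measured 1297, 1034 and 1053 rpm in dcl4-2, against 24358, 30874 and 23904 rpm in Col-0. Every dcl4-2 library lay far below every Col-0 library of its medium. Ranges without overlap were found for 92.9% of the 28 class values on MS-N (60.7% higher in dcl4-2, 32.1% lower) and for 60.7% on MS (14.3% higher, 46.4% lower). For tasiRNA the group means in Col-0 were 17.1-fold higher on MS-N and 23.4-fold higher on MS. At 22 nt the tasiRNA class measured 12390.2, 12018 and 13183 rpm in dcl4-2 on MS-N, against 2905, 2947 and 2724 rpm in Col-0 on MS-N. On MS it measured 5709, 5523 and 5665 rpm in dcl4-2, against 985, 1177 and 901 rpm in Col-0. The mutant means at this length were 4.38-fold higher on MS-N and 5.52-fold higher on MS, again with no overlap. Over both media the log2 difference, dcl4-2 minus Col-0, was -4.32 at 21 nt and 2.30 at 22 nt (adjusted p = 0.0127 each, exact permutation test over 400 arrangements, Benjamini-Hochberg over the 28 class values). In whole seedlings, fewer cells that make a class of small RNA and less of it per cell cannot be told apart.

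In rpm, the shortfall of 21-nt tasiRNA in the mutant was larger than its gain at 22 nt. The 21-nt mean was 43115 rpm lower and the 22-nt mean 9672 rpm higher in dcl4-2 than in Col-0 on MS-N, and on MS the differences were 25251 rpm lower and 4611 rpm higher. The share of 22-nt reads among the 21-nt and 22-nt tasiRNA reads was 82.4 ± 0.595% in dcl4-2 on MS-N and 83.3 ± 1.62% in dcl4-2 on MS, against 5.90 ± 0.406% in Col-0 on MS-N and 3.73 ± 0.138% in Col-0 on MS. The class therefore consisted mostly of 22-nt reads in each of the 6 mutant libraries and mostly of 21-nt reads in each of the 6 wild-type libraries.

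Exon reads followed tasiRNA reads at both lengths. The class table does not say how its classes overlap, and the tasiRNA reads were treated as part of the exon reads because the exon value exceeded the tasiRNA value in all 12 libraries and moved with it. The 21-nt exon class averaged 12486 ± 638 rpm in dcl4-2 on MS-N and 5806 ± 322 rpm in dcl4-2 on MS, against 54680.4 ± 5017 rpm in Col-0 on MS-N and 35236 ± 4157 rpm in Col-0 on MS. At 22 nt it averaged 26356 ± 878 rpm in dcl4-2 on MS-N and 11018 ± 423 rpm in dcl4-2 on MS, against 9898 ± 219 rpm in Col-0 on MS-N and 8479 ± 347 rpm in Col-0 on MS. Mutant and wild-type libraries did not overlap on either medium or at either length. Over both media the log2 difference, dcl4-2 minus Col-0, was -2.36 at 21 nt and 0.90 at 22 nt (adjusted p = 0.0127 each, exact permutation test). The 22-nt call was lost, with the same direction, when reads were divided by the class sum of the same length (0.66) or by the 21-nt microRNA reads of the library (0.43).

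**Figure D1:**
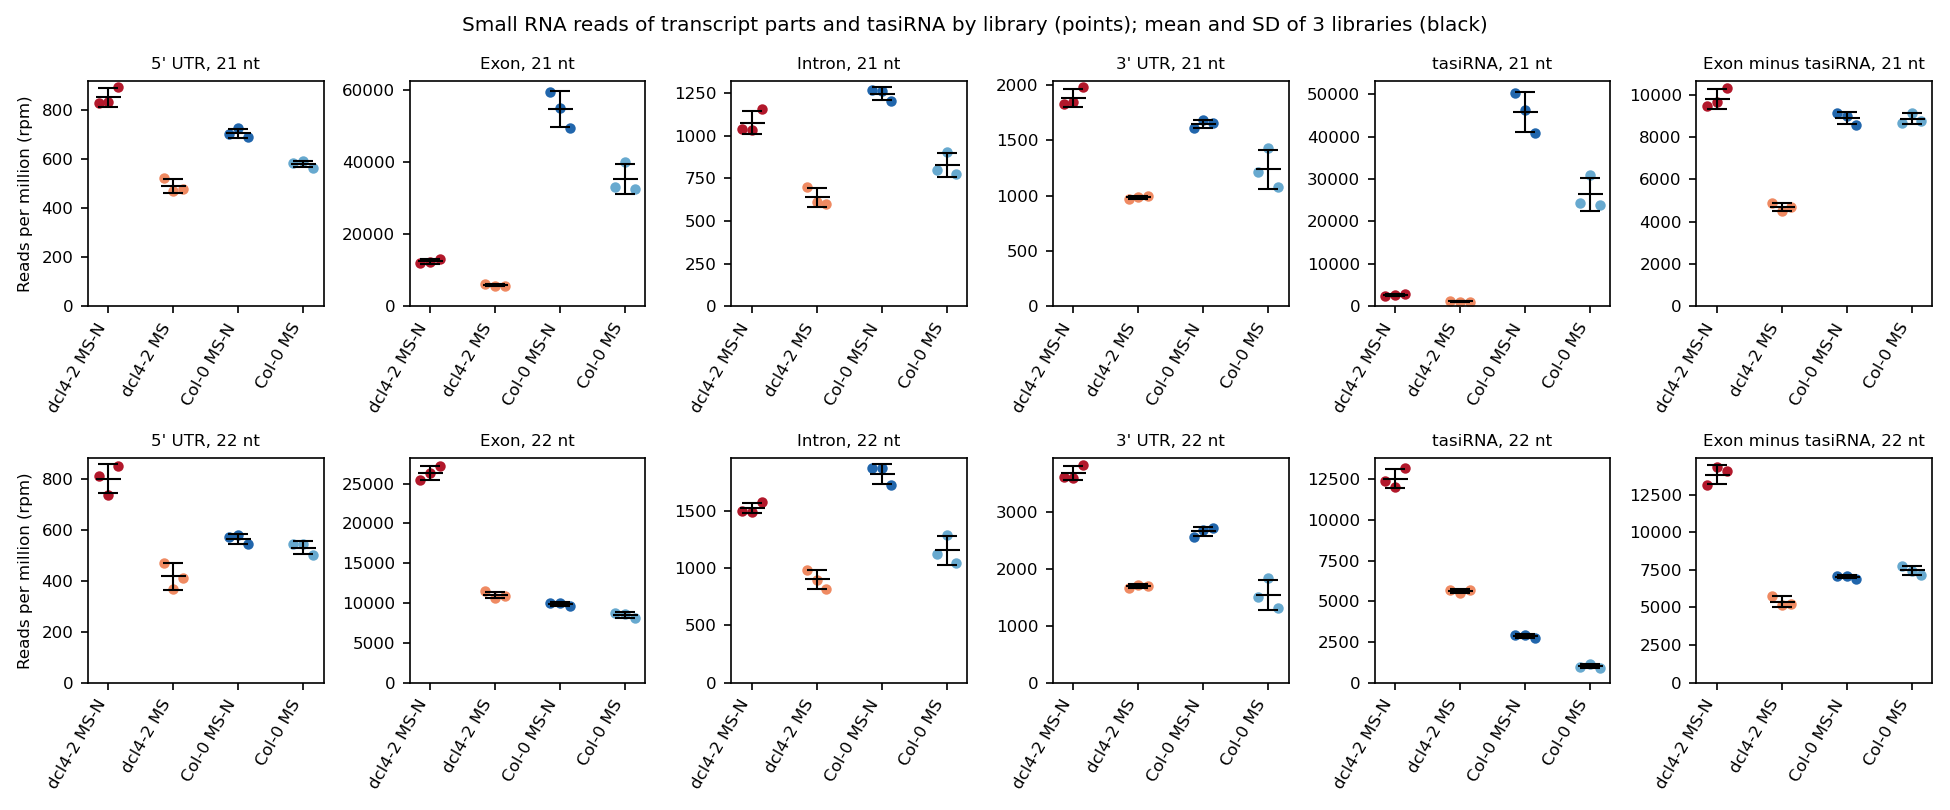
Library-scaled reads in rpm (vertical axes, each from 0) of the 5 classes and of exon minus tasiRNA, at 21 nt in the upper panels and at 22 nt in the lower ones. Points are libraries, black bars the mean and SD of 3 libraries, and the groups run from dcl4-2 on MS-N to Col-0 on MS. The 21-nt tasiRNA points of dcl4-2 lie at 1034 to 2866 rpm, below all Col-0 points.

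TasiRNA reads made up very different parts of the exon class in mutant and wild type. Among 21-nt reads they were 21.4 ± 0.330% of the exon reads in dcl4-2 on MS-N and 19.4 ± 1.47% in dcl4-2 on MS, against 83.7 ± 1.02% in Col-0 on MS-N and 74.7 ± 2.12% in Col-0 on MS. At 22 nt they were 47.5 ± 1.62% in dcl4-2 on MS-N and 51.1 ± 1.25% in dcl4-2 on MS, against 28.9 ± 0.582% in Col-0 on MS-N and 12.03 ± 1.44% in Col-0 on MS. The exon class of the wild type at 21 nt was thus largely tasiRNA, and the remaining exon reads were obtained by subtracting the tasiRNA value from the exon value in each library.

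The remaining exon reads were higher on MS-N than on MS in dcl4-2 and differed little between the media in Col-0. Exon minus tasiRNA at 21 nt measured 9448, 9651 and 10333 rpm in dcl4-2 on MS-N and 4862, 4495 and 4678 rpm in dcl4-2 on MS. The Col-0 libraries held 9114, 8970.2 and 8586 rpm on MS-N and 8672, 9157 and 8742 rpm on MS. Only the dcl4-2 libraries on MS stood apart from the other 9 by a wide margin, at about the same level as each other. At 22 nt the difference measured 13110.1, 14295 and 14072 rpm in dcl4-2 on MS-N and 5776, 5139 and 5243 rpm in dcl4-2 on MS. The Col-0 libraries held 7118, 7078 and 6921 rpm on MS-N and 7765, 7422 and 7187 rpm on MS. At this length the mutant was above the wild type on MS-N and below it on MS, with no overlap on either medium. The Col-0 libraries on MS-N lay just below those on MS.

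In rpm, the genotype difference of the remaining exon reads had opposite signs on the 2 media. It did not pass the test over both media, at -0.39 log2 for 21 nt (adjusted p = 0.173) and 0.25 log2 for 22 nt (adjusted p = 0.382, exact permutation test). Within a medium, limma gave a log2 difference, dcl4-2 minus Col-0, of 0.97 ± 0.0607 (SE) at 22 nt on MS-N (adjusted p = 4.69e-08) and of -0.47 ± 0.0607 on MS (adjusted p = 4.92e-05). At 21 nt it gave 0.14 ± 0.0558 on MS-N (adjusted p = 0.0335) and -0.92 ± 0.0558 on MS (adjusted p = 3.48e-08). The small 21-nt difference on MS-N was past the threshold with all libraries, and an adjusted p as high as 0.116 was reached when 1 library was left out. It was lost without Col-0 on MS-N replicate 2 (or 3) and without dcl4-2 on MS-N replicate 2 (or 3). The interaction, the genotype difference on MS-N minus that on MS, was 1.06 ± 0.0790 log2 at 21 nt (adjusted p = 4.52e-07) and 1.44 ± 0.0858 log2 at 22 nt (adjusted p = 8.41e-08, limma), and it stayed past the threshold under the 3 scalings tried. The 22-nt difference on MS was -0.25 and no longer past the threshold (adjusted p = 0.112, limma) when reads were divided by the class sum without microRNA. At 21 nt the difference on MS-N turned to -0.017 when divided by the class sum of the same length and to -0.39 when divided by 21-nt microRNA reads. An exact permutation test within 1 medium cannot go below 0.1, the value it gave for each of these 4 differences.

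**Figure D2:**
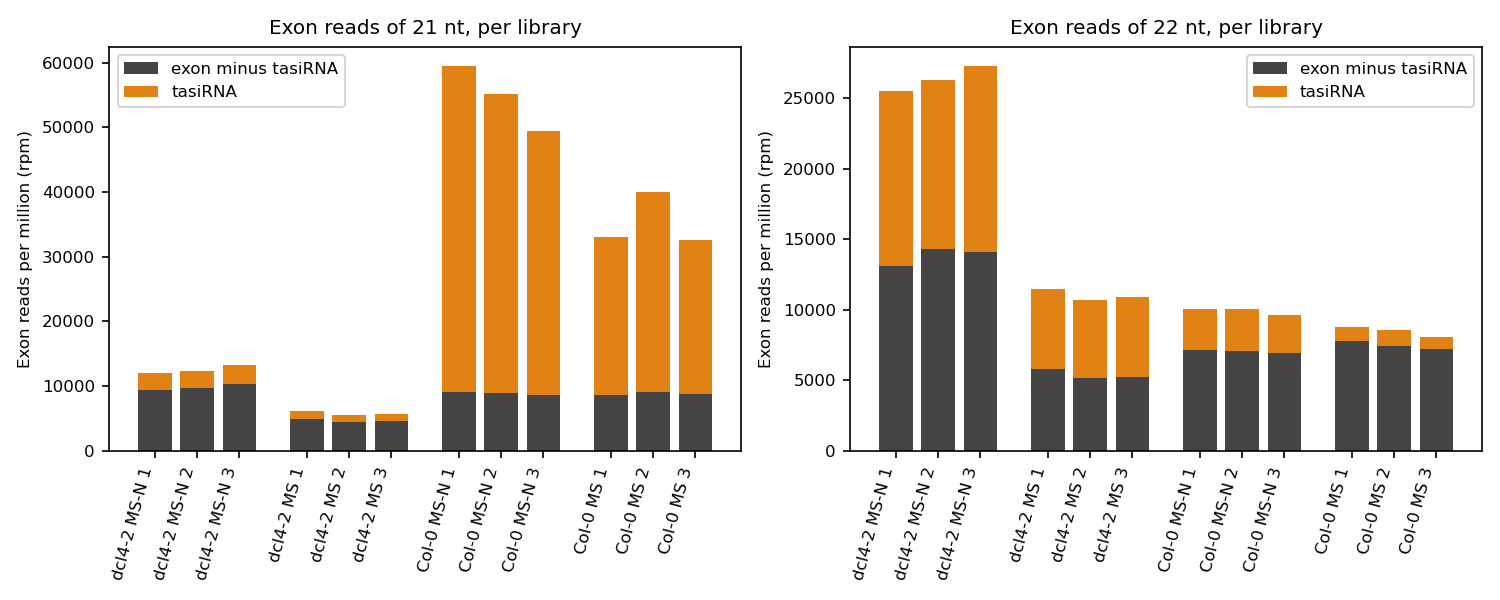
Stacked bars of exon reads per library in rpm, split into tasiRNA (orange) and exon minus tasiRNA (grey), for 21 nt (left) and 22 nt (right). In the 6 Col-0 libraries the 21-nt grey part stays at 8586 to 9157 rpm while the orange part ranges between 23904 and 50329.6 rpm.

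One gene, NIA2, held a large part of the 22-nt reads assigned to genes in dcl4-2 on MS-N. NIA2 (AT1G37130) encodes the major nitrate reductase, which reduces nitrate to nitrite. In the authors' deposited table of 22-nt reads its group mean was 45734 normalized reads in dcl4-2 on MS-N and 166 in dcl4-2 on MS, against 108 in Col-0 on MS-N and 71.2 in Col-0 on MS, and it was 13.7% of all 22-nt reads in the column of dcl4-2 on MS-N. Its 21-nt mean in the authors' deposited table was 8383 normalized reads in dcl4-2 on MS-N and 50.3 in dcl4-2 on MS, against 71.3 in Col-0 on MS-N and 59.6 in Col-0 on MS. The group with high NIA2 reads was the one in which the remaining exon reads of 22 nt were highest. The gene table was normalized apart from the class table, so a group mean could only be bounded in rpm from the size factors and library totals.

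At 22 nt the bounds for NIA2 were 6098 and 9079.7 rpm in dcl4-2 on MS-N, against 19.9 and 22.4 rpm in Col-0 on MS-N. The remaining exon mean was 6786 rpm higher in dcl4-2 than in Col-0 on MS-N, which lies between the bounds. With NIA2 subtracted the 22-nt remainder was 4746 to 7727 rpm in dcl4-2 on MS-N, against 7017 to 7019 rpm in Col-0 on MS-N, so its direction depended on the bound. At 21 nt the bounds were 1126 and 1690.3 rpm in dcl4-2 on MS-N, and the remainder without NIA2 was 8120.3 to 8684 rpm there, against 8874 to 8876 rpm in Col-0 on MS-N. At 21 nt the mutant was then below the wild type at either bound. That all NIA2 reads were counted as exon reads is not stated in the files, and these subtractions carry no test. Subtracting NIA2 was chosen after the data were seen. The interactions of the remaining exon reads given above include the NIA2 reads and were not tested without them.

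NIA1 (AT1G77760), the second nitrate reductase gene, was smaller in the authors' deposited table of 22-nt reads, with 597 normalized reads in dcl4-2 on MS-N and 1166 in dcl4-2 on MS, against 75.5 in Col-0 on MS-N and 38.0 in Col-0 on MS. The authors' deposited log2 ratio of dcl4-2 to Col-0 on MS-N was 2.98 for it (adjusted p = 0.000272), and 8.72 for NIA2 (adjusted p = 1.00e-56).

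The UTR classes held fewer reads than the exon class, on a scale that is not per length of the class. The 5′ UTR class at 21 nt measured 827, 831 and 894 rpm in dcl4-2 on MS-N, against 703, 725 and 689 rpm in Col-0 on MS-N. On MS it measured 522, 469 and 476 rpm in dcl4-2, against 582, 590.4 and 564 rpm in Col-0. Mutant libraries lay above the wild-type libraries on MS-N and below them on MS. At 22 nt the 5′ UTR class measured 813, 739.9 and 852 rpm in dcl4-2 on MS-N, against 573, 581 and 544 rpm in Col-0 on MS-N. On MS it measured 472, 370.2 and 410.1 rpm in dcl4-2, against 543, 547 and 500.3 rpm in Col-0. The same crossing held at this length, without overlap on either medium.

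Over both media the 5′ UTR genotype difference did not pass the test, at 0.012 log2 for 21 nt (adjusted p = 0.905) and 0.075 log2 for 22 nt (adjusted p = 0.669, exact permutation test). In limma the 22-nt difference was 0.50 ± 0.0913 log2 on MS-N (adjusted p = 0.000344) and -0.35 ± 0.0913 log2 on MS (adjusted p = 0.00501), with an interaction of 0.85 ± 0.129 (adjusted p = 0.000207). Its interaction at 21 nt was 0.51 ± 0.0884 (adjusted p = 0.000515). At 22 nt the call on MS-N was lost when reads were divided by the class sum of the same length (0.30, adjusted p = 0.113) and turned to -0.036 when divided by 21-nt microRNA reads. The call on MS was lost with the class sum without microRNA (-0.13, adjusted p = 0.592), while the 22-nt interaction stayed past the threshold under these 3 scalings. At 21 nt the interaction was lost with the class sum of the same length (0.24, adjusted p = 0.0538).

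The 4 classes of structural RNAs also had positive interactions at 22 nt, as did the 5′ UTR and the remaining exon reads. The interaction at this length was 1.02 for tRNA (adjusted p = 4.22e-05), 0.86 for rRNA (adjusted p = 0.000519), 1.05 for snoRNA (adjusted p = 0.00243) and 0.67 for snRNA (adjusted p = 0.0437, limma). The tRNA class at 22 nt averaged 4453 ± 229 rpm in dcl4-2 on MS-N and 3904 ± 259 rpm in dcl4-2 on MS, against 2732 ± 356 rpm in Col-0 on MS-N and 4822 ± 140.4 rpm in Col-0 on MS. Of the 4 classes, tRNA alone had mutant and wild-type libraries apart on both media, and the others overlapped on MS. In Col-0 the tRNA and rRNA classes at 22 nt were lower on MS-N than on MS. Neither the 5′ UTR nor exon minus tasiRNA passed at 22 nt for that contrast. Their log2 differences, MS-N minus MS, were 0.095 (adjusted p = 0.33) and -0.083 (adjusted p = 0.243, limma). The part of such fragments in the 5′ UTR and exon results was not tested.

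In rpm, the 3′ UTR class rose at 22 nt in the mutant over both media, while at 21 nt it fell on MS and did not pass the test on MS-N. At 21 nt it measured 1825, 1843 and 1981 rpm in dcl4-2 on MS-N, against 1612, 1679.9 and 1656 rpm in Col-0 on MS-N. On MS it measured 969.5, 989.6 and 997 rpm in dcl4-2, against 1210.0, 1429 and 1075 rpm in Col-0. The mutant libraries lay above the wild-type libraries on MS-N and below them on MS, with no overlap. At 22 nt it measured 3607, 3600.0 and 3816 rpm in dcl4-2 on MS-N, against 2565, 2681 and 2717 rpm in Col-0 on MS-N. On MS it measured 1666, 1723 and 1698 rpm in dcl4-2, against 1497, 1831 and 1306 rpm in Col-0. Here the groups overlapped on MS, where Col-0 replicate 2 was the highest library, and were apart on MS-N.

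Over both media the 22-nt 3′ UTR reads rose in dcl4-2 by 0.31 log2 (adjusted p = 0.0431, exact permutation test). The call was lost, with an adjusted p of up to 0.0800, without Col-0 on MS replicate 1, Col-0 on MS replicate 3, dcl4-2 on MS replicate 2 or dcl4-2 on MS replicate 3. It was also lost when reads were divided by the class sum of the same length (0.074), and it turned to -0.15 when divided by 21-nt microRNA reads. The 21-nt difference was -0.064 log2 (adjusted p = 0.644). Within a medium, limma gave 0.19 ± 0.0876 log2 at 21 nt on MS-N (adjusted p = 0.0581, 95% interval -0.0018 to 0.38) and -0.32 ± 0.0876 log2 on MS (adjusted p = 0.00654). The call on MS was lost with the class sum of the same length (-0.20) and with the class sum without microRNA (-0.095). At 22 nt limma gave 0.47 ± 0.0978 log2 on MS-N (adjusted p = 0.000885) and 0.15 ± 0.0978 log2 on MS (adjusted p = 0.209, 95% interval -0.067 to 0.36). The last value passed the threshold without Col-0 on MS replicate 2, at 0.28. The interaction was past the threshold at 21 nt, with 0.51 ± 0.124 (adjusted p = 0.00463), and not at 22 nt, with 0.32 ± 0.138 (adjusted p = 0.0707).

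In rpm, intron reads were lower in dcl4-2 than in Col-0 at both lengths and on both media, with calls that did not hold when reads were divided by the class sum without microRNA. The intron class at 21 nt measured 1042, 1034 and 1158 rpm in dcl4-2 on MS-N, against 1272, 1265 and 1204 rpm in Col-0 on MS-N. On MS it measured 701, 613 and 601 rpm in dcl4-2, against 799, 907 and 778 rpm in Col-0. The groups were apart on each medium, by less than between the media. At 22 nt it measured 1500.0, 1490.5 and 1575 rpm in dcl4-2 on MS-N, against 1868, 1867 and 1722 rpm in Col-0 on MS-N. On MS it measured 985, 897 and 817 rpm in dcl4-2, against 1125, 1290.3 and 1044 rpm in Col-0. Over both media the log2 difference, dcl4-2 minus Col-0, was -0.29 at 21 nt and -0.31 at 22 nt (adjusted p = 0.0127 each, exact permutation test). With the class sum without microRNA the differences were -0.089 at 21 nt (adjusted p = 0.305) and -0.10 at 22 nt (adjusted p = 0.237, exact permutation test). Within a medium they were then -0.028 at 21 nt and -0.073 at 22 nt on MS-N and -0.15 and -0.13 on MS, none past the threshold in limma. The interactions in rpm, 0.16 ± 0.116 at 21 nt (adjusted p = 0.26) and 0.10 ± 0.125 at 22 nt (adjusted p = 0.454, limma), did not pass.

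Counted over the 10 class values, the genotype test over both media called 3 higher in dcl4-2 (exon, tasiRNA and 3′ UTR at 22 nt) and 4 lower (exon and tasiRNA at 21 nt, intron at both lengths). Of all 28 class values, 46.4% were called, 17.9% higher and 28.6% lower. The median log2 difference was -0.026 over the 10 and 0.089 over the 28. On MS alone, limma called 2 of the 10 higher and 7 lower, against 60.7% of the 28 called in either direction. On MS-N alone it called 5 higher and 4 lower, against 85.7% of the 28 (53.6% higher, 32.1% lower). The 2 intron calls on MS-N were lost without Col-0 on MS-N replicate 1 (or 2) or dcl4-2 on MS-N replicate 1 (or 2), with an adjusted p of up to 0.0934 at 21 nt and 0.0596 at 22 nt. The 10 are among the 28, and whether their share of calls differs from that of the rest was not tested. The interaction was past the threshold for 7 of the 10, 6 of them positive, against 53.6% of the 28 (46.4% positive, 7.14% negative). The negative one, tasiRNA at 22 nt with -0.34 ± 0.122 (adjusted p = 0.0371), and the positive one of tasiRNA at 21 nt with 0.45 ± 0.171 (adjusted p = 0.0437), were each lost without any of 8 libraries. At 22 nt these were all but Col-0 on MS replicate 2, Col-0 on MS-N replicate 3, dcl4-2 on MS replicate 1 and dcl4-2 on MS-N replicate 3, and at 21 nt all but Col-0 on MS replicates 1 and 3, Col-0 on MS-N replicate 1 and dcl4-2 on MS replicate 1.

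**Figure D3:**
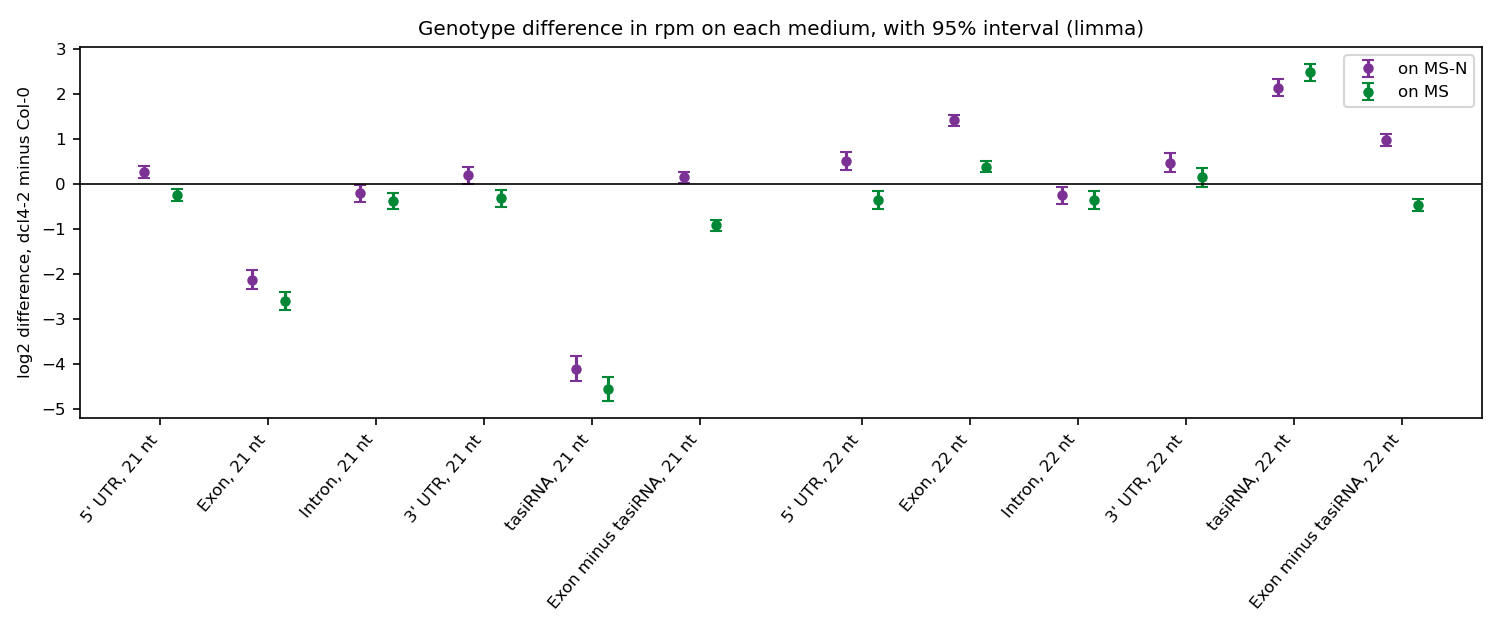
Log2 difference in rpm, dcl4-2 minus Col-0 (vertical axis), with the 95% interval from limma, on MS-N (purple) and on MS (green) for each class and length. The signs differ between the media for the 5′ UTR at both lengths, the 3′ UTR at 21 nt and exon minus tasiRNA at both lengths, which at 22 nt is 0.97 on MS-N and -0.47 on MS; divided by 21-nt microRNA reads, the MS-N value is negative for all of these except exon minus tasiRNA at 22 nt.

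The 22-nt share of a class does not change when all reads of a library are scaled by the same factor. It would change with the class sum of the same length, which divides 21-nt and 22-nt reads by different factors. Shares and ratios were not recomputed under that scaling. In the exon class it was 67.9 ± 0.429% in dcl4-2 on MS-N and 65.5 ± 0.383% in dcl4-2 on MS, against 15.4 ± 0.947% in Col-0 on MS-N and 19.5 ± 1.66% in Col-0 on MS. With tasiRNA subtracted it was 58.5 ± 1.07% in dcl4-2 on MS-N and 53.5 ± 0.737% in dcl4-2 on MS, against 44.2 ± 0.396% in Col-0 on MS-N and 45.7 ± 1.34% in Col-0 on MS. The shift of the exon class toward 22 nt in the mutant was therefore smaller without tasiRNA, and still without overlap. The dcl4-2 share on MS-N includes the NIA2 reads. Without NIA2, the remaining exon reads of dcl4-2 on MS-N were bounded at 4746 to 7727 rpm for 22 nt and 8120.3 to 8684 rpm for 21 nt. In Col-0 on MS-N they were 7017 to 7019 rpm and 8874 to 8876 rpm. Whether the shift on MS-N remains without NIA2 was not tested. In the 3′ UTR class the share was 66.1 ± 0.287% in dcl4-2 on MS-N and 63.2 ± 0.258% in dcl4-2 on MS, against 61.7 ± 0.398% in Col-0 on MS-N and 55.4 ± 0.670% in Col-0 on MS. The 5′ UTR share was 48.5 ± 1.26% in dcl4-2 on MS-N and 46.0 ± 1.71% in dcl4-2 on MS, against 44.5 ± 0.377% in Col-0 on MS-N and 47.8 ± 0.703% in Col-0 on MS. Introns had nearly the same share in all 4 groups, between 57.3% and 59.6% in the 12 libraries.

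**Figure D4:**
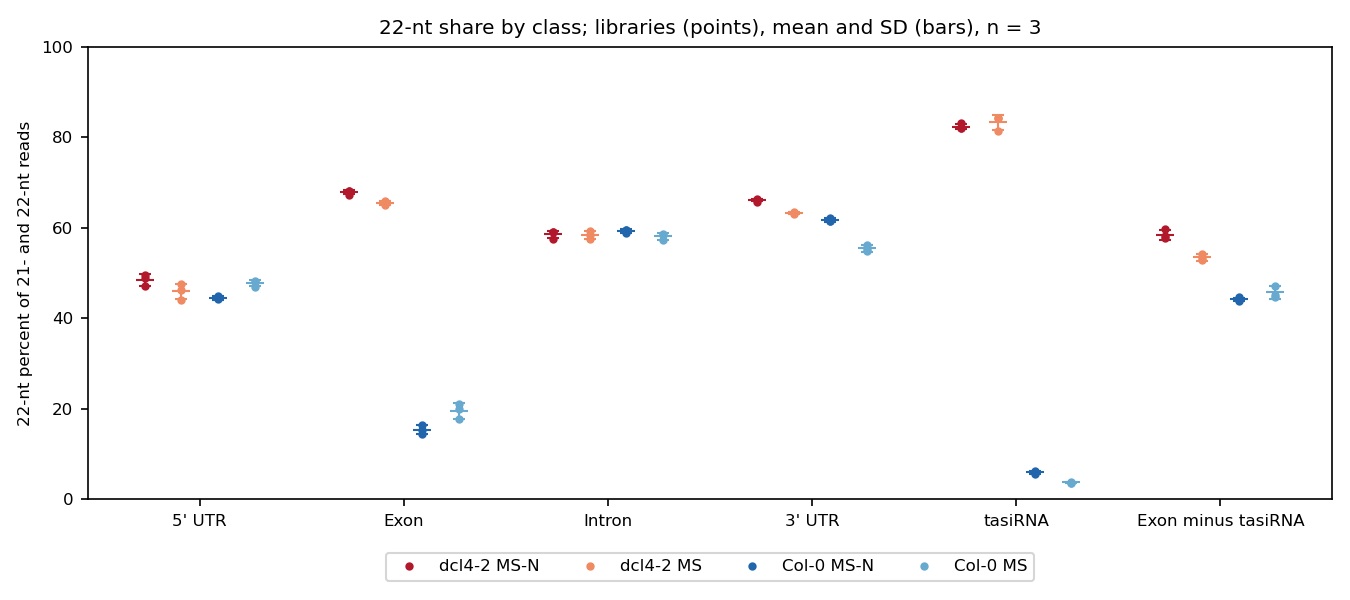
The 22-nt reads as a percent of 21-nt plus 22-nt reads (vertical axis, 0 to 100) in each class; points are libraries and bars the mean and SD of 3. The dcl4-2 libraries lie at 81.5% to 84.3% for tasiRNA, against 3.63% to 6.25% for Col-0, and all intron libraries lie at 57.3% to 59.6%.

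On the log2 ratio of 22-nt to 21-nt reads, 3 of the 5 classes rose in dcl4-2 over both media, against 28.6% of the 14 classes. The difference, dcl4-2 minus Col-0, was 6.62 for tasiRNA, 3.26 for the exon class and 0.37 for the 3′ UTR class (adjusted p = 0.0175 each, exact permutation test over the 14 ratios). For exon minus tasiRNA, tested in place of the exon class, it was 0.64 (adjusted p = 0.0175). NIA2 reads are included in this value. The 5′ UTR ratio, 0.062 (adjusted p = 0.525), and the intron ratio, -0.014 (adjusted p = 0.795), did not pass. For introns the 95% interval of the difference ran from -0.14 to 0.046 on MS-N and from -0.074 to 0.11 on MS (limma), so a shift of the size seen in the 3′ UTR class lies outside it.

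The ratio also changed with the medium in a way that differed between the genotypes. The interaction of the ratio was 0.38 ± 0.0688 for exon minus tasiRNA (adjusted p = 0.00202) and -0.79 ± 0.119 for tasiRNA (adjusted p = 0.000934, limma). The value for exon minus tasiRNA includes the NIA2 reads of dcl4-2 on MS-N and was not tested without them. Called interactions were 35.7% of the 14 ratios. For the medium effect on the ratio, 21.4% of the 14 were called in dcl4-2 and 42.9% in Col-0. In Col-0 the tasiRNA ratio was 0.69 ± 0.0841 higher on MS-N than on MS (adjusted p = 7.93e-05), and in dcl4-2 it was -0.10 ± 0.0841 (adjusted p = 0.374, 95% interval -0.29 to 0.089). Without dcl4-2 on MS replicate 1 the value in dcl4-2 was -0.19 and passed the threshold.

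Nitrogen deprivation went with more reads in each of the 5 classes, in rpm. The medium test over both genotypes called all 10 values higher on MS-N, against 75% of the 28 class values in either direction, 67.9% higher and 7.14% lower. The median log2 difference, MS-N minus MS, was 0.73 over the 10 and 0.62 over the 28. The highest were tasiRNA at 22 nt with 1.32, tasiRNA at 21 nt with 1.03 and the 3′ UTR at 22 nt with 0.95, and the lowest were the 5′ UTR values with 0.54 at 21 nt (adjusted p = 0.00778, as for the other 8) and 0.52 at 22 nt (adjusted p = 0.014, exact permutation test). Divided by the 21-nt microRNA reads of the library, the median of the 28 shifted by -0.84, and 6 of the 10 values turned negative. For these 6 the rise was thus one in rpm and not relative to microRNA. The other values stayed positive, among them tasiRNA at 22 nt. Of these, the exon class and tasiRNA at 21 nt and the 3′ UTR at 22 nt missed the threshold.

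In dcl4-2 all 10 values were called higher on MS-N, against 82.1% of the 28 (75% higher, 7.14% lower), and none of the 10 overlapped between the media, against 85.7% of the 28 without overlap (78.6% higher). The log2 differences in dcl4-2, MS-N minus MS, ran from 0.76 for introns at 21 nt to 1.26 for the exon class at 22 nt. In Col-0, 9 of the 10 were called higher, against 82.1% of the 28 in either direction and 64.3% higher. The exception was the 5′ UTR at 22 nt, with 0.10 (95% interval -0.11 to 0.30, adjusted p = 0.33, limma). Exon minus tasiRNA in Col-0 gave 0.0053 at 21 nt (95% interval -0.12 to 0.13) and -0.083 at 22 nt (95% interval -0.22 to 0.05), neither past the threshold. In dcl4-2 it gave 1.07 ± 0.0558 at 21 nt (adjusted p = 1.06e-08) and 1.36 ± 0.0607 at 22 nt (adjusted p = 3.77e-09, limma). The rise of the exon class on MS-N in Col-0, 19445 rpm at 21 nt, was therefore nearly matched in size by the rise of tasiRNA, 19411 rpm. With NIA2 subtracted, the 22-nt remainder in dcl4-2 was 4746 to 7727 rpm on MS-N, against 5360 to 5364 rpm on MS. Its direction between the media thus depended on the bound. At 21 nt the remainder in dcl4-2 was 8120.3 to 8684 rpm on MS-N, against 4671 to 4672 rpm on MS. Neither subtraction carries a test.

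The 4 transcript parts together, with tasiRNA inside the exon class, were 5.74% of the summed 21-nt reads of the 13 classes other than tasiRNA in dcl4-2 on MS-N and 4.86% in dcl4-2 on MS, against 22.9% in Col-0 on MS-N and 21.3% in Col-0 on MS. At 22 nt they were 24.8% in dcl4-2 on MS-N and 13.7% in dcl4-2 on MS, against 13.1% in Col-0 on MS-N and 13.6% in Col-0 on MS. The wide spread in dcl4-2 on MS at 22 nt, 11.5% to 16.7%, went with replicate 1, the library with few 22-nt intergenic reads.

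Of the genes of the tasiRNA pathway, 10 were looked up in the authors' deposited gene tables: the trigger genes MIR173, MIR390A, MIR390B and MIR828A, the ARGONAUTE genes AGO1 and AGO7 that bind them, and RDR6, SGS3, DCL4 and DRB4. These tables hold small RNA reads from each gene, and not its messenger. For dcl4-2 against Col-0 on MS-N at 21 nt, the authors' deposited table called 3 of the 10 higher, the MIR173, MIR390A and MIR390B genes, and 1 lower, AGO1, while 6 had no adjusted p, against 7.3% of tested loci higher and 4.87% lower. At 22 nt it called those 3 and AGO1 higher, with 1 not past and 5 without an adjusted p, against 9.29% of tested loci higher and 4.48% lower.

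AGO1, which carries miR173 and whose own transcript is a source of secondary siRNAs, showed the same switch of length as the tasiRNA class. Its 21-nt mean in the authors' deposited table was 48.3 normalized reads in dcl4-2 on MS-N and 21.6 in dcl4-2 on MS, against 138 in Col-0 on MS-N and 87.3 in Col-0 on MS. At 22 nt the authors' deposited means were 141 in dcl4-2 on MS-N and 71.9 in dcl4-2 on MS, against 40.1 in Col-0 on MS-N and 25.7 in Col-0 on MS. The authors' deposited log2 ratio on MS-N was -1.52 at 21 nt (adjusted p = 8.45e-07) and 1.81 at 22 nt (adjusted p = 7.85e-10).

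The MIR173 locus, whose annotated mature microRNA above has 22 bases, was counted mostly at 21 nt. Its 21-nt means in the authors' deposited table were 34530.2 normalized reads in dcl4-2 on MS-N and 15705 in dcl4-2 on MS, against 18059.9 in Col-0 on MS-N and 8877 in Col-0 on MS. Its 22-nt means there were 398 in dcl4-2 on MS-N and 122 in dcl4-2 on MS, against 182 in Col-0 on MS-N and 71.8 in Col-0 on MS. The authors' deposited log2 ratio of dcl4-2 to Col-0 on MS-N was 0.94 at 21 nt (adjusted p = 1.24e-12) and 1.13 at 22 nt (adjusted p = 0.00132). For MS-N against MS it was 1.14 in dcl4-2 and 1.02 in Col-0 at 21 nt in the authors' deposited table. The same authors' deposited ratio was -0.016 in dcl4-2 and 0.52 in Col-0 for MIR390A, and 0.47 and 0.73 for MIR390B, none past the threshold. MIR828A at 21 nt did not pass in dcl4-2 and had no adjusted p in Col-0. Its authors' deposited ratio at 22 nt was 5.01 in dcl4-2 (adjusted p = 0.0145) and 3.20 in Col-0 (adjusted p = 0.21). These rest on few reads, with 22-nt means of 6.18 in dcl4-2 on MS-N and 1.66 in Col-0 on MS-N, and 0 in both genotypes on MS. Of tested loci, 5.28% were called higher and 4.19% lower in dcl4-2, and 2.8% higher and 6.09% lower in Col-0.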

How the data were processed

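Small RNA of whole Arabidopsis seedlings was sequenced by the authors in 12 libraries, 3 in each of 4 groups of genotype and medium. The tools used by the authors were Bowtie 1.2.2, an aligner, and SAMtools 1.9, with TAIR10 as the genome build, per the submitters' processing notes. How reads were assigned to classes is not given in the sources used here. The deposited class table gives rpm per library at 21 nt and 22 nt for 14 classes, under a header that says TPM. In each library all 28 values were whole multiples (within 0.001 reads) of 1 read in the library total. For each gene locus the authors deposited a group mean of normalized reads (a signal), log2 ratios between groups, and p-values with their adjusted form.

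The effects of genotype over both media and of medium over both genotypes were tested by exact permutation, two-sided, on log2 rpm without a pseudocount (400 arrangements, smallest p 0.005), and the effects within a medium or genotype and the interaction with limma 3.58.1 in R 4.3.3, with a trend and 1 fit over the 4 groups. Benjamini-Hochberg adjustment ran over the 28 class values, or 14 ratios, with a threshold of 0.05. Exon minus tasiRNA replaced the exon values in fits of its own. NIA2 was bounded in rpm by the smallest and largest size factor of its group's libraries, read from the most frequent positive means of the group. The tests were checked on simulated data. Sequences were read from the genome of TAIR10.1. The 5 classes, all of which are described, the pathway list (values given for some of the genes called, and for nitrate reductase) and the tests were chosen with earlier results of these data known. The alternatives are named in the closing section. Raw reads were not analysed here.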

Additional observations from a re-analysis of the deposited data

Results flagged for a closer look

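The genotype difference, dcl4-2 minus Col-0, differed between the media for 14 values, by the interaction term of limma (the difference on MS-N minus that on MS, log2). At 21 nt the interaction was 0.51 for the 5′ UTR, 0.51 for the 3′ UTR, 0.47 for the exon class, 0.45 for tasiRNA and 1.06 for exon minus tasiRNA. At 22 nt it was 0.85 for the 5′ UTR, 1.03 for the exon class, -0.34 for tasiRNA and 1.44 for exon minus tasiRNA. For the log2 ratio of 22-nt to 21-nt reads it was 0.34 for the 5′ UTR, -0.19 for the 3′ UTR, 0.57 for the exon class, -0.79 for tasiRNA and 0.38 for exon minus tasiRNA. The exon values and those of exon minus tasiRNA share reads and are not independent of each other.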

How the results depend on the processing

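All values here are log2 differences unless said otherwise. Results were recomputed without a logarithm, with 2 pseudocounts, under 3 scalings, with a filter on low classes, with limma for the permutation test, with the groups of a contrast alone in the fit, with a replicate block and without each of 12 libraries. Of the 2628 recomputed results, 2449 were classed as unchanged, 108 as weaker, 30 as stronger and 40 as reversed, and 1 moved. For a single value, unchanged means the same side of the threshold, including changes of sign with no call before or after. Weaker means a call lost and stronger a call gained in the same direction, and reversed a change of sign with a call before or after. Counts of calls are among the results and were classed by the ratio of the counts, not by the threshold. The tasiRNA and 22-nt exon differences between dcl4-2 and Col-0 over both media kept their direction throughout. The 2 planned count models were not run. The filter gives no value for the 5′ UTR, for introns at 21 nt or for the 5′ UTR and intron ratios. Where a result below changed, the cause was not tested.

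The scalings move the median of all 28 values. Divided by the class sum of the same length, the median shifts by -0.53 for medium and -0.11 for genotype, by the class sum without microRNA by -0.32 and 0.20, and by 21-nt microRNA by -0.84 and -0.46.

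Under the class sum of the same length, the medium difference was no longer past the threshold for exon 22 nt (0.38), 5′ UTR 22 nt (0.16), intron 21 nt (0.015) and 3′ UTR 21 nt (0.017), and it was -0.12 for 5′ UTR 21 nt. Within Col-0 it turned to -0.17 for exon 22 nt, -0.52 for exon minus tasiRNA 21 nt, -0.24 for 5′ UTR 21 nt and -0.098 for 3′ UTR 21 nt, and within dcl4-2 to -0.00096 for 5′ UTR 21 nt and -0.043 for intron 21 nt. The genotype difference missed the threshold for exon 22 nt (0.66) and 3′ UTR 22 nt (0.074), and exon minus tasiRNA 21 nt turned to -0.017 on MS-N. Within a medium it missed for 5′ UTR 21 nt (0.11 on MS-N, -0.12 on MS), 5′ UTR 22 nt on MS-N (0.30), exon 22 nt on MS (0.11) and 3′ UTR 21 nt on MS (-0.20). The interaction missed it for exon 21 nt (0.19), 5′ UTR 21 nt (0.24), 3′ UTR 21 nt (0.23), tasiRNA 21 nt (0.17) and tasiRNA 22 nt (-0.27).

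Under the class sum without microRNA, the medium difference missed the threshold for exon 22 nt (0.42), 5′ UTR 21 nt (0.22) and 5′ UTR 22 nt (0.20), and within Col-0 turned to -0.077 for exon 22 nt, -0.30 for exon minus tasiRNA 21 nt and -0.016 for 5′ UTR 21 nt. The genotype difference missed it for intron 21 nt (-0.089) and 22 nt (-0.10) and, on MS, for exon minus tasiRNA 22 nt (-0.25), 5′ UTR 21 nt (-0.021) and 22 nt (-0.13) and 3′ UTR 21 nt (-0.095), the interaction for tasiRNA 21 nt (0.41), and 8 class values were called for genotype on MS, against 17 in rpm.

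Divided by 21-nt microRNA, the medium difference turned to -0.10 for exon 22 nt, -0.30 and -0.32 for 5′ UTR 21 nt and 22 nt, -0.17 and -0.13 for intron 21 nt and 22 nt and -0.17 for 3′ UTR 21 nt, and missed the threshold for exon 21 nt (0.026), tasiRNA 21 nt (0.18) and 3′ UTR 22 nt (0.11). Within Col-0 it turned to -0.13 and -0.55 for exon 21 nt and 22 nt, -0.76 for exon minus tasiRNA 21 nt, -0.48 and -0.67 for 5′ UTR 21 nt and 22 nt, -0.18 and -0.11 for intron 21 nt and 22 nt and -0.35 for 3′ UTR 21 nt, and within dcl4-2 to -0.12 for 5′ UTR 21 nt and -0.16 for intron at each length. The genotype difference turned to -0.45 for 5′ UTR 21 nt and -0.15 for 3′ UTR 22 nt, missed the threshold for exon 22 nt (0.43), and passed it for exon minus tasiRNA 21 nt (-0.85) and 3′ UTR 21 nt (-0.53). On MS-N it turned to -0.39 for exon minus tasiRNA 21 nt, -0.27 and -0.036 for 5′ UTR 21 nt and 22 nt and -0.35 and -0.067 for 3′ UTR 21 nt and 22 nt, and on MS to -0.0069 for exon 22 nt and -0.24 for 3′ UTR 22 nt. The tasiRNA 21 nt interaction was 0.30, and 15 class values were called for genotype on MS-N, against 24 in rpm.

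With a pseudocount of 100 the tasiRNA interactions, 0.38 at 21 nt and -0.27 at 22 nt, missed the threshold. With limma in place of the permutation test, exon minus tasiRNA passed for genotype (-0.39 at 21 nt, 0.25 at 22 nt), medium (0.54 and 0.64) and the medium ratio (0.10), as did the tasiRNA medium ratio (0.30), with 4 ratios called for medium. With classes of at least 1000 rpm alone, fewer values were tested, and 12 were called for medium, 14 for medium in dcl4-2 and 3 ratios for genotype on MS-N. With the groups of a contrast alone in the fit, 3 ratios were called for genotype on MS and 8 on MS-N.

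Same-numbered libraries did not deviate together as a rule (18 correlations, -0.519 to 0.779, 7 over 0.1). Those of Col-0 on MS-N and Col-0 on MS did so for replicate 2 (0.723) and replicate 3 (0.779), and not for replicate 1 (-0.379). With the replicate block, tested by 64 sign flips, 0 class values and 0 ratios were called for genotype and 0 ratios for medium, at an adjusted p of 0.0795 for exon 21 nt (-2.36) and 22 nt (0.90), intron 21 nt (-0.29) and 22 nt (-0.31) and tasiRNA 21 nt (-4.32) and 22 nt (2.30), and 0.135 for 3′ UTR 22 nt (0.31). The genotype ratios were 3.26 (exon), 0.64 (exon minus tasiRNA), 6.62 (tasiRNA) and 0.37 (3′ UTR), and the 3′ UTR medium ratio was 0.28. The smallest p these flips allow is 0.0312, and after adjustment it passes only where most of the values tested reach it together. The flips therefore cannot tell a weaker difference from this limit. The tasiRNA interactions in limma, 0.45 and -0.34, also missed the threshold with the block.

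Leaving out 1 library moved the tasiRNA interaction between 0.33 and 0.56 at 21 nt and between -0.45 and -0.25 at 22 nt, and each was lost without any of 8 libraries. The other ranges were 0.52 to 0.55 for exon minus tasiRNA 21 nt by medium (past the threshold without Col-0 on MS replicate 2 or Col-0 on MS-N replicate 3), 0.25 to 0.37 for 3′ UTR 22 nt by genotype, 0.19 to 0.43 for its interaction (past without Col-0 on MS replicate 3) and 0.27 to 0.29 for the 3′ UTR medium ratio (lost without dcl4-2 on MS-N replicate 1). Ratios called ranged from 4 to 10 for genotype on MS and 2 to 6 for medium in dcl4-2, both highest without dcl4-2 on MS replicate 1, and 0 to 3 for medium, lowest without dcl4-2 on MS-N replicate 1. With NIA2 subtracted at its lower and upper bound, exon minus tasiRNA on MS-N was 0.14 and -0.56 at 22 nt and -0.032 and -0.13 at 21 nt.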
